A study of Homo sapiens with 7 samples.

Results

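The genes described here encode the protein subunits of the human mitochondrial ribosome. They are the protein-coding RefSeq genes of GRCh38 whose symbol is MRPL or MRPS followed by a number, 77 genes of the 19974 protein-coding genes on chromosomes 1 to 22 and X. Of them 49 carry an MRPL symbol (large subunit) and 28 an MRPS symbol (small subunit). The symbols are historical, and the products of MRPS18A and MRPS30 are now placed in the large subunit. The genes were picked by name and not by a measured value, but earlier results of these data were known when the set was chosen.

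Mitochondrial ribosomes translate the few messages of the mitochondrial genome, which encode core subunits of the respiratory chain. Their ribosomal RNA is made inside the organelle, whereas all of their proteins are encoded in the nucleus, transcribed by RNA polymerase II (Pol II) and imported. Pol II carries a long C-terminal domain of repeated heptapeptides, and phosphate groups are added to and removed from these repeats as a gene is transcribed. Phosphate on threonine 4 (pThr4) is best known from the region past the polyadenylation site, where Pol II terminates. Phosphate on serine 5 (pSer5), the neighbouring residue, is most abundant near gene starts.

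The data were chromatin immunoprecipitation sequencing (ChIP-seq) peak lists of pThr4 in HEK293 cells, an established human embryonic kidney line. Nuclear lysate of formaldehyde-fixed cells was split into aliquots and treated in vitro with 1 of 2 enzymes before precipitation with the pThr4 antibody 6D7. The SCP1_WT aliquots received active SCP1, a phosphatase that removes pSer5, and the SCP1_D96A aliquots received the catalytically dead enzyme. Each group held 3 biological replicates, all libraries were paired-end, and no cell was itself manipulated: the groups share cell line, lysate and antibody and differ in the enzyme added to the tube.

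Each library had its own list of broad peaks, with a position, a fold enrichment and a −log10 p per peak. There were 12625, 6680 and 36892 peaks in the SCP1_WT lists (replicates 1, 2 and 3) but 2466, 1163 and 2699 in the SCP1_D96A lists. SCP1_WT replicate 3 therefore stood apart from the other libraries in the length of its list. Reads were not counted in these lists and depth is unknown, so a missing peak means that none was listed, not that pThr4 was absent. For the same reason folds of different libraries stand on no shared scale. Values below are therefore given per library, in the order of replicates 1, 2 and 3.

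Peaks were assigned to 3 windows per gene. The TSS window reached 1 kb to either side of the transcription start site (TSS), the gene body ran from the end of that window to the transcription end site (TES), and the downstream window ran from the TES to 5 kb beyond it. A window counted as occupied when a peak overlapped it by at least 1 bp, and the strongest overlapping peak gave its fold. Genes MRPL53 and MRPL41 were too short to have a gene body outside the TSS window, so 75 members had one. The members were short, with a median length of 8618 bp against 24806.5 bp over the 19630 protein-coding genes with a strand. Many of them had close neighbours: 29 of 77 (37.7%) had another protein-coding gene starting on the opposite strand within 1 kb of their TSS, compared with 13.7% of all protein-coding genes.

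The promoters of 69 members were matched in the RefSeq promoter table of GRCh38.p14, each as 250 bases before and 50 bases after a gene start. The 6 shown are those that the peaks below bear on: MRPL53 and MRPL40, whose starts were covered by peaks in both groups, MRPS34 and MRPS26, whose starts lay under or beside long SCP1_WT peaks, MRPL20, with strong peaks at its end and none at its start, and MRPL46, which shares its promoter region with MRPS11 on the other strand. Capitals mark matches, on either strand, to short motif letters: CCGGAAG (ETS factors), AAGATGG (YY1) and GGGCGG (GC box). The longest run of capitals in MRPL53 is an ETS match that overlaps a GC box by 1 base.
MRPL53 (chr2:74472631-74472930, minus strand): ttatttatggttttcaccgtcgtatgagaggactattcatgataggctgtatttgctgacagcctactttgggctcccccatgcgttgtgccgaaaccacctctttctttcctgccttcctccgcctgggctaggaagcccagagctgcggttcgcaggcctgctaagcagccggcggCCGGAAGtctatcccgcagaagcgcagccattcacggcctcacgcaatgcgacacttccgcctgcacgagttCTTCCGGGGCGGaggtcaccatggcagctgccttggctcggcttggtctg
MRPL40 (chr22:19432295-19432594, plus strand): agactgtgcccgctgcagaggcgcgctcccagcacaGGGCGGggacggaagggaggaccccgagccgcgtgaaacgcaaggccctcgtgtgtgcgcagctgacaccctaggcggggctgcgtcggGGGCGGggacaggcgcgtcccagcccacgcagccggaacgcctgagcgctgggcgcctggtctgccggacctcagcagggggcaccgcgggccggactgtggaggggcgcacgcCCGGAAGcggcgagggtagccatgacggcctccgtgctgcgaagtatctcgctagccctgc
MRPS34 (chr16:1773085-1773384, minus strand): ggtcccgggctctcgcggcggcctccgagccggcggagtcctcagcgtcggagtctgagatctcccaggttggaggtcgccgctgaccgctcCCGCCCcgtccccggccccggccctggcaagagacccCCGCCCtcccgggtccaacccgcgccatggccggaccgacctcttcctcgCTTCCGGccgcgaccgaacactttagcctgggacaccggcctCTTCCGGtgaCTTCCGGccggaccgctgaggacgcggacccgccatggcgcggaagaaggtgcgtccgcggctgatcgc
MRPS26 (chr20:3045802-3046101, plus strand): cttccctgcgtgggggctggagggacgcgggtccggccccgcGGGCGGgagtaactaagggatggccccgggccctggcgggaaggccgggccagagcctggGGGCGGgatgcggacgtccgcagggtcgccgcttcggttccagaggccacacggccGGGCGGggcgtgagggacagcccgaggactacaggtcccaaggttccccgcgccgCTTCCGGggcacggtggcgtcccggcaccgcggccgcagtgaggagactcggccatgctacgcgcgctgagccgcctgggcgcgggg
MRPL20 (chr1:1407244-1407543, minus strand): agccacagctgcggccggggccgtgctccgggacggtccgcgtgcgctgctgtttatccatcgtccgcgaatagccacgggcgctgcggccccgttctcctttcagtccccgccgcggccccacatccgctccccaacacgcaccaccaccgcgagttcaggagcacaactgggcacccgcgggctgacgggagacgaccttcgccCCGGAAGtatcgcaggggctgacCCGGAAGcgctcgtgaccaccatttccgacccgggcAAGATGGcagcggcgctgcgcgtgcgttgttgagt
MRPL46 (chr15:88467339-88467638, minus strand): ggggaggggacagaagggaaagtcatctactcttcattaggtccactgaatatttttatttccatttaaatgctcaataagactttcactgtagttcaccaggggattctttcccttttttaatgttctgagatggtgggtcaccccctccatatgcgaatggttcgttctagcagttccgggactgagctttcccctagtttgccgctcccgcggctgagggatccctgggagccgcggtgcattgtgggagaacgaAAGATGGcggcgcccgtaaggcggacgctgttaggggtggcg

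The ETS letters CCGGAAG, or their reverse complement, stood in 29 of 69 member promoters (42.0%) and in 14.1% of 15812 protein-coding promoters of the same length. The YY1 letters AAGATGG stood in 23 of 69 (33.3%) and in 6.36% of all. YY1 and ETS factors are transcription factors long associated with promoters of nuclear genes for mitochondrial proteins. The GC box GGGCGG was as frequent in the members (59.4%) as in all promoters (58.3%), CCAAT was found in 29% against 36.4%, the letters TATAAA in 2.90% against 9.75%, and the core letters GCATGCG of NRF1, a regulator of mitochondrial genes, in 10.1% against 5.15%. The median G+C content was 60.3% in the members and 62.7% over all promoters. These counts describe letters in a window and say nothing on binding.

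Peaks of pThr4 lay mainly behind the ends of these genes, and were listed at more of them after active SCP1. In the downstream window, 42, 30 and 47 of the 77 members had a peak in the SCP1_WT libraries and 19, 9 and 17 in the SCP1_D96A libraries. Every SCP1_WT library lay above every SCP1_D96A library. The means were 51.5% ± 11.3 (SD, n = 3) and 19.5% ± 6.87, a difference of 32.0 percentage points that exceeded the spread within either group. Over all protein-coding genes the same means were 28.0% ± 10.4 and 8.70% ± 3.00. With the lists reduced to an equal peak number, the 1163 strongest of each, the difference between the groups was gone: 10, 8 and 10 members had a downstream peak in SCP1_WT and 10, 9 and 9 in SCP1_D96A, a difference of 0.0 points. With a common cutoff at a −log10 p of 6 it was 6.06 points, with 12, 9 and 16 members against 8, 6 and 9. Over all protein-coding genes that cutoff left 8.35, 6.42 and 10.6% in SCP1_WT and 4.39, 2.76 and 4.29% in SCP1_D96A. Lists of equal peak number have the same length by construction, so that form cannot show where an excess lay. List length and treatment cannot be told apart here.

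**Figure D1:**
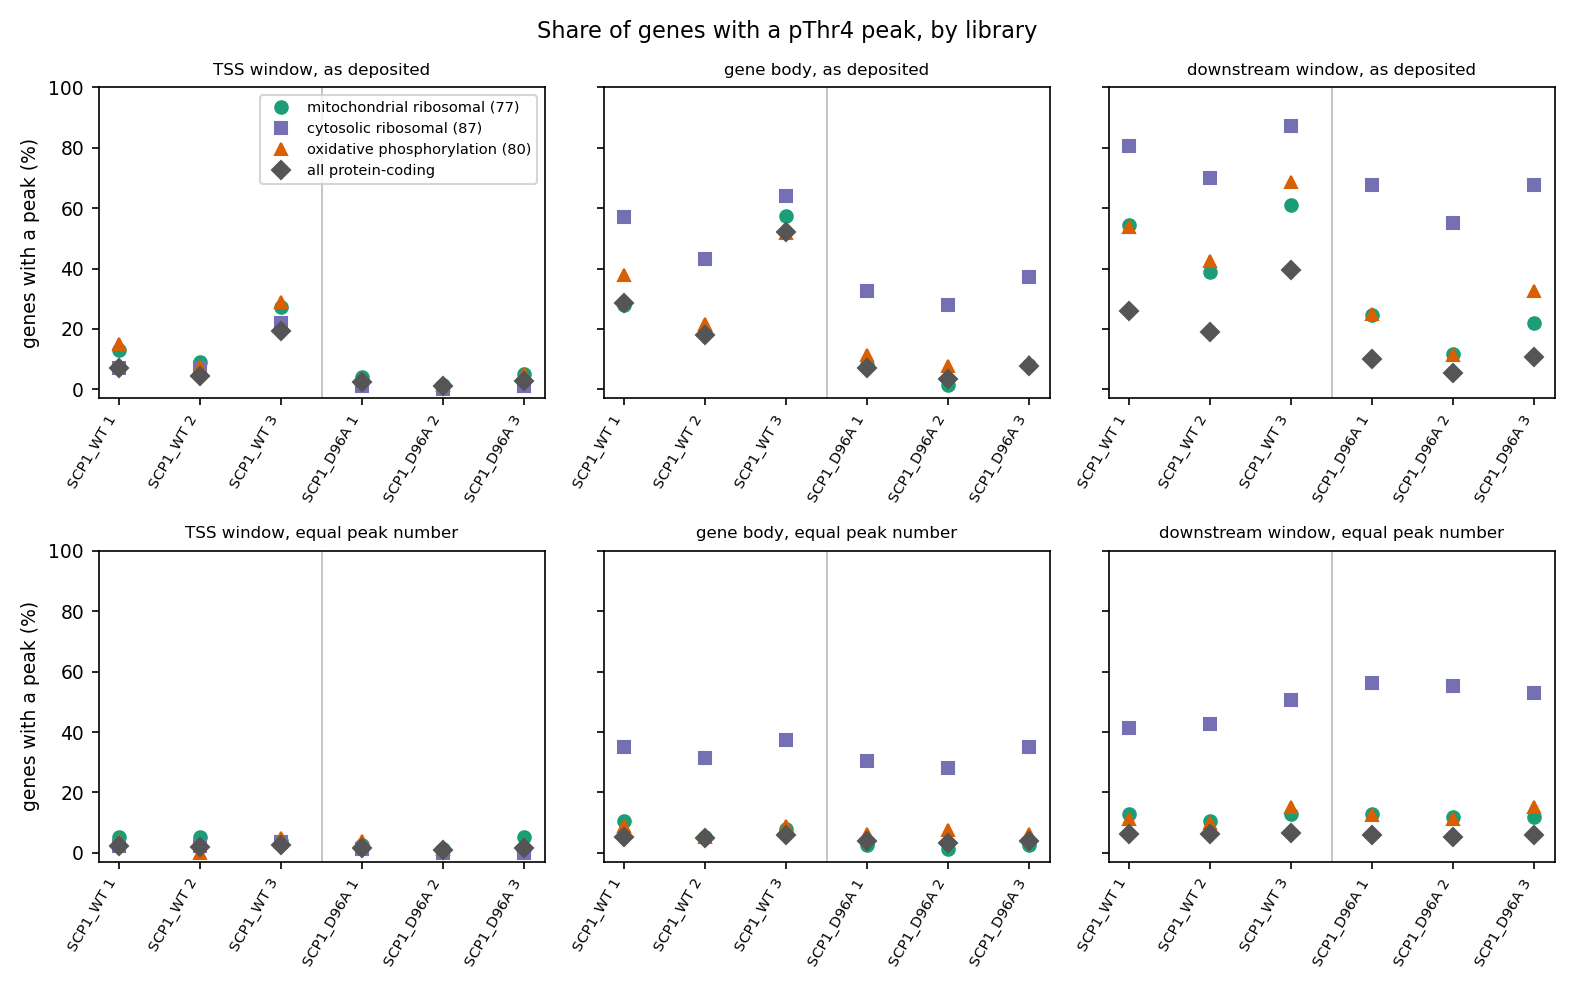
Share of genes with a peak (%, vertical axis) in each of the 6 libraries (horizontal axis) for the TSS window, gene body and downstream window. The upper row uses the lists as deposited and the lower row the 1163 strongest peaks of each list; points are the 77 mitochondrial ribosomal, 87 cytosolic ribosomal, 80 oxidative phosphorylation and all protein-coding genes. The downstream shares of the mitochondrial ribosomal genes lay at 39.0 to 61.0% in SCP1_WT and 11.7 to 24.7% in SCP1_D96A as deposited, and at 10.4 to 13.0% in all 6 libraries at equal peak number.

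The downstream share of the members stood between the background and the cytosolic ribosomal protein genes, whose products form the ribosome of the cytoplasm. Of those 87 genes 79.3% ± 8.68 had a downstream peak in SCP1_WT and 63.6% ± 7.30 in SCP1_D96A. The 80 nuclear genes of oxidative phosphorylation, whose products assemble with the proteins that mitochondrial ribosomes make, had 55.0% ± 13.2 and 22.9% ± 10.8, within 1 SD of the members in both groups. At equal peak number the members still exceeded all protein-coding genes in each library, with 10.4 to 13.0% against 5.25 to 6.67%. Another protein-coding gene lay in the downstream window of 32 members (41.6%, against 38.4% of all genes). Among the 45 members without one, 22, 14 and 24 had a downstream peak in SCP1_WT and 7, 4 and 6 in SCP1_D96A, that is 48.9, 31.1 and 53.3% and 15.6, 8.89 and 13.3%. The corresponding shares of all genes with an empty downstream window were 16.5, 11.3 and 28.6% and 5.51, 2.94 and 5.92%.

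Coverage along the genes showed where these peaks sat. Over the 73 members of at least 2000 bp, coverage was highest downstream of the TES, reaching 31.5, 23.3 and 37.0% of members in the SCP1_WT libraries and 15.1, 6.85 and 11% in the SCP1_D96A libraries. The highest point lay 1050, 950 and 1650 bp past the TES in SCP1_WT and 950, 950 and 350 bp past it in SCP1_D96A. All protein-coding genes of that length were also covered most past the TES, with maxima of 13.5, 9.50 and 20.9% in SCP1_WT and 4.53, 2.23 and 4.65% in SCP1_D96A, 750 to 950 bp past the TES. In the members, close to the TSS, the highest coverage was 6.85, 2.74 and 16.4% in SCP1_WT and 1.37, 0.0 and 2.74% in SCP1_D96A. Midpoints of the strongest downstream peaks had a median distance from the TES of 1185, 1112 and 1556 bp in SCP1_WT and 985, 1165 and 1600 bp in SCP1_D96A, so the groups overlapped in position. Peaks that reached back across the TES into the gene made up 13 of 42, 10 of 30 and 21 of 47 in SCP1_WT and 4 of 19, 1 of 9 and 3 of 17 in SCP1_D96A. Over all protein-coding genes such peaks made up 32.6 to 35.7% in SCP1_WT and 22.2 to 25.3% in SCP1_D96A.

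**Figure D2:**
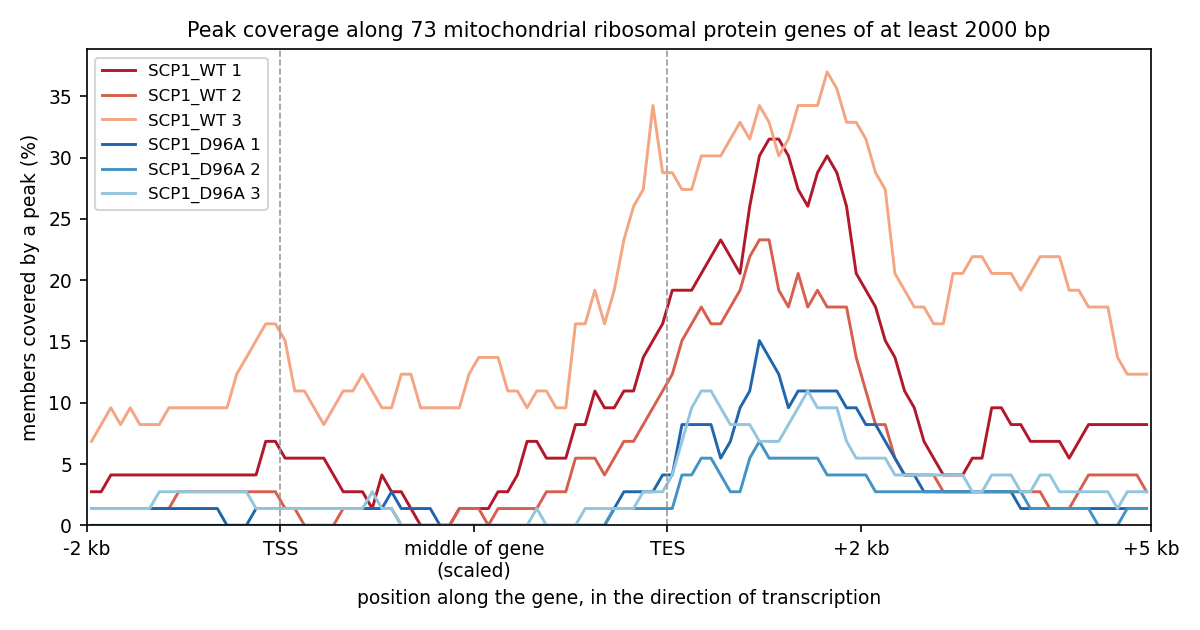
Share of the 73 members of at least 2000 bp that were covered by a peak (%, vertical axis) along the gene (horizontal axis: 2 kb before the TSS, the scaled gene, 5 kb past the TES), with 1 line per library. Every line is highest past the TES, at 37.0% for SCP1_WT replicate 3 and at 6.85% for SCP1_D96A replicate 2.

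In all, 53 of the 77 members had a downstream peak in at least 1 library and 24 (31.2%) in none, against 58.1% of all protein-coding genes with none. Members with such a peak in all 3 SCP1_WT libraries numbered 26 (33.8%, against 16.6% of all genes), with a median gene length of 5399.5 bp against 12555 bp in the other members. By symbol, MRPS genes had 17, 15 and 21 of 28 in SCP1_WT and 11, 4 and 8 in SCP1_D96A, MRPS18A among them in every library, and MRPL genes 25, 15 and 26 of 49 and 8, 5 and 9. In the lists as deposited, no member had a downstream peak in more SCP1_D96A than SCP1_WT libraries, a pattern that 0.296% of all genes had. At equal peak number 8 members had one in more SCP1_D96A libraries (MRPS15, MRPL37, MRPL30, MRPS2, MRPL10, MRPL27, MRPL38 and MRPL4) and 5 in more SCP1_WT libraries (MRPS21, MRPL55, MRPL53, MRPS16 and MRPS7). Shares of all protein-coding genes with these patterns were not computed at equal peak number, so the counts have no background beside them. Within replicate 1 of the lists as deposited, MRPL10 and MRPS14 had a downstream peak in SCP1_D96A and none in SCP1_WT. No member did within replicates 2 and 3.

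A downstream peak in all 6 libraries was listed for 7 members (9.09%), against 4.46% of all protein-coding genes. Without SCP1_D96A replicate 2, whose list was the shortest, 12 members had one in all remaining libraries. The share of all genes was not computed for that setting. The 7 were MRPS34, MRPL2, MRPL20, MRPL12, MRPS18A, MRPS15 and MRPS2. The product of MRPL2 belongs to a universal ribosomal protein family that lies by the peptidyl transferase centre, and MRPL12 encodes a stalk protein that also binds the mitochondrial RNA polymerase. MRPS34 and MRPS2 encode small-subunit proteins, and loss of MRPS34 destabilises the small subunit. The folds of MRPS34 were 6.61, 6.72 and 8.24 in SCP1_WT and 5.77, 5.14 and 5.48 in SCP1_D96A. Those of MRPL2 were 5.82, 5.91 and 7.85 against 4.65, 4.53 and 5.82, and those of MRPL20 were 5.39, 4.80 and 5.63 against 4.52, 4.14 and 4.48. In these 3 genes every SCP1_WT value lay above every SCP1_D96A value, though in MRPL2 the lowest and the highest of the groups met within rounding.

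On the log2 scale the means of MRPS34 were 2.84 ± 0.18 (SD, n = 3) and 2.45 ± 0.08, a difference of 0.39. MRPL2 differed by 0.38 and MRPL20 by 0.27, and each of the 3 had an exact permutation p of 0.1 (two-sided), the smallest that 3 against 3 libraries can give. As folds of different libraries stand on no shared scale, these comparisons concern the listed values only. At MRPS34 the compared peaks also differed in extent, as given below. Those of MRPL2 lay over the start of a neighbouring gene, also given below. The remaining 4 genes overlapped between groups. MRPL12 had folds of 4.56, 4.2 and 5.50 against 4.90, 3.87 and 4.63 (difference 0.09, exact p = 0.6). MRPS18A had 4.15, 3.64 and 5.05 against 3.94, 3.73 and 4.94 (difference 0.02, exact p = 0.9). MRPS15 had 4.08, 3.54 and 3.71 against 4.12, 3.64 and 3.91 (difference -0.04, exact p = 0.7), and MRPS2 had 3.71, 3.23 and 4.61 against 3.71, 3.43 and 3.61 (difference 0.09, exact p = 0.8). The median difference over the 7 was 0.09, against 0.10 over the 875 genes with a downstream peak in all 6 libraries. Among these 875 genes 23.7% had every SCP1_WT fold above every SCP1_D96A fold and 3.09% every one below, compared with 3 and 0 of the 7 members. Without SCP1_WT replicate 3 the median over the 7 became -0.022, and with lists of equal length, over the 5 members still present in all 6, it was 0.27.

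**Figure D3:**
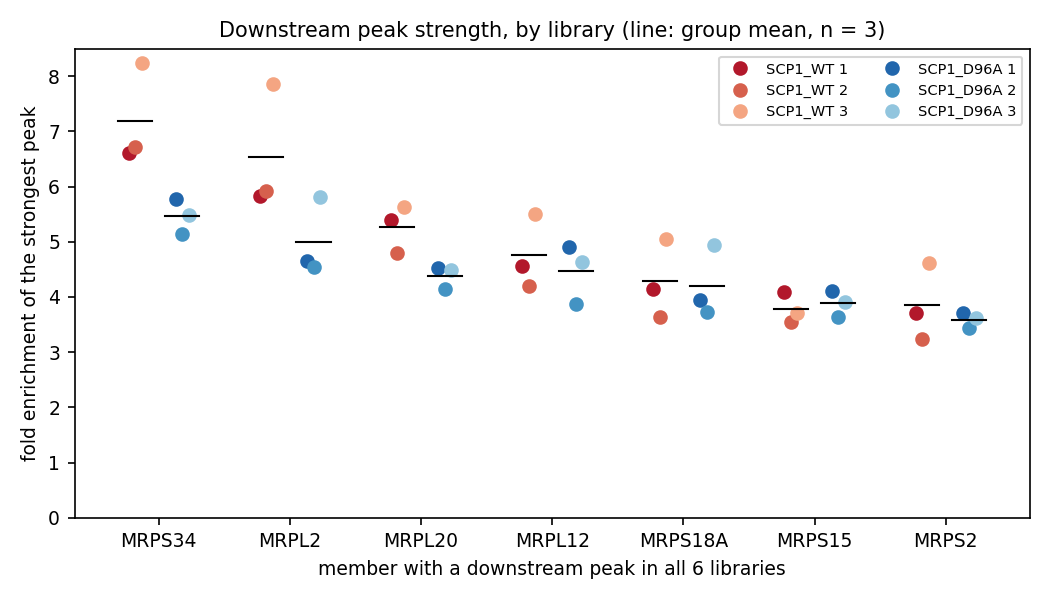
Fold enrichment of the strongest downstream peak (vertical axis) for the 7 members with such a peak in all 6 libraries (horizontal axis). Points are libraries and lines are group means (n = 3); in MRPS34, MRPL2 and MRPL20 the SCP1_WT points stand above the SCP1_D96A points, and in MRPL12, MRPS18A, MRPS15 and MRPS2 they overlap.

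Several of these downstream peaks also lay over a neighbouring gene. The MRPL2 peak of SCP1_WT replicate 1 ran from 43053305 to 43054007 on chromosome 6, and the start of CUL7, which encodes a ubiquitin ligase scaffold, lies 178 bp past the TES of MRPL2 on the same strand. Peaks at this place were narrow, 587 to 1111 bp wide in SCP1_WT and 405 to 540 bp in SCP1_D96A. Thus the peak counted downstream of MRPL2 covered the start of CUL7 in all 6 libraries. It reached the TES of MRPL2 itself only in SCP1_WT replicate 3. The start of CCNL2, a cyclin gene, lies 2574 bp past the TES of MRPL20, and the peak of SCP1_WT replicate 1 (chr1:1399200-1404252) crossed the TES and reached that start. At MRPL12 the downstream peaks reached the start window of SLC25A10, which encodes the mitochondrial dicarboxylate carrier and begins 4767 bp past the TES. In MRPS15 and MRPS2 no other protein-coding gene shared the downstream window. Their peaks lay within 2 kb of the TES in all 6 libraries by midpoint, from 664.5 to 1456.5 bp in MRPS15 and from 281.5 to 882.5 bp in MRPS2.

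MRPS34 was embedded in the widest of these peaks. Its peak spanned 15643 bp in SCP1_WT replicate 1 (chr16:1767561-1783203), 5956 bp in replicate 2 and 17227 bp in replicate 3, each covering the whole 1240 bp gene together with NME3, the end of MAPK8IP3 and the start of EME2. In SCP1_D96A the corresponding peaks were 4005, 2552 and 3452 bp wide and began 1124, 2151 and 1253 bp past the TSS of MRPS34. The start of MRPS34 was thus under a peak in each SCP1_WT library. In SCP1_D96A no peak covered it, and 1 peak of replicate 3 with a fold of 4.55 touched the TSS window.

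A downstream peak in all 3 SCP1_WT and no SCP1_D96A library was listed for 7 further members (9.09%), against 5.45% of all protein-coding genes. Without SCP1_WT replicate 2, the shortest SCP1_WT list, the count was 15, and the share of all genes was not computed for that setting. The folds of the 7 lay between 3.02 and 4.35. MRPS25 had 3.76, 3.87 and 3.71, MRPS31 had 3.28, 3.33 and 3.58, and MRPS6 had 3.25, 3.68 and 3.02. MRPL36, whose bacterial counterpart is among the smallest ribosomal proteins, had 3.26, 3.10 and 3.30, MRPL24 had 3.04, 3.34 and 3.60, and MRPL18, whose bacterial counterpart binds ribosomal RNA of the large subunit, had 3.56, 3.35 and 3.03. MRPL55 had 4.27, 3.08 and 4.35, but the peaks of replicates 1 and 3 were centred 7111.5 and 7237 bp past its TES, over C1orf35 and beyond. The peaks of MRPS25 and MRPL18 also overlapped another protein-coding gene in each SCP1_WT library. NR2C2 lay in the downstream window of MRPS25, and the start of PNLDC1 in that of MRPL18. The peaks of MRPS31, MRPL36 and MRPS6 shared their window with no other protein-coding gene, and their midpoints lay between 1251 and 2074 bp past the TES. The MRPL24 peaks lay at different places, with midpoints -486.5, 878 and 3092 bp from the TES in replicates 1, 2 and 3. That of replicate 1 overlapped the window by 73 bp, and MRPL24 lost the pattern when 200 bp of overlap was required. None of the 7 kept the pattern of SCP1_WT alone at equal peak number or at the common cutoff. In both of those forms MRPS7 alone showed it.

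Among the members with a peak in 3 SCP1_WT and 1 or 2 SCP1_D96A libraries, MRPS16 was the strongest, with downstream folds of 4.98, 4.50 and 6.37 in SCP1_WT and 3.59 and 4.61 in SCP1_D96A replicates 1 and 3. MRPL37 had 4.43, 4.17 and 4.10 against 5.00 and 4.93 in the same replicates, so here the listed SCP1_D96A folds were the higher ones.

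**Figure D4:**
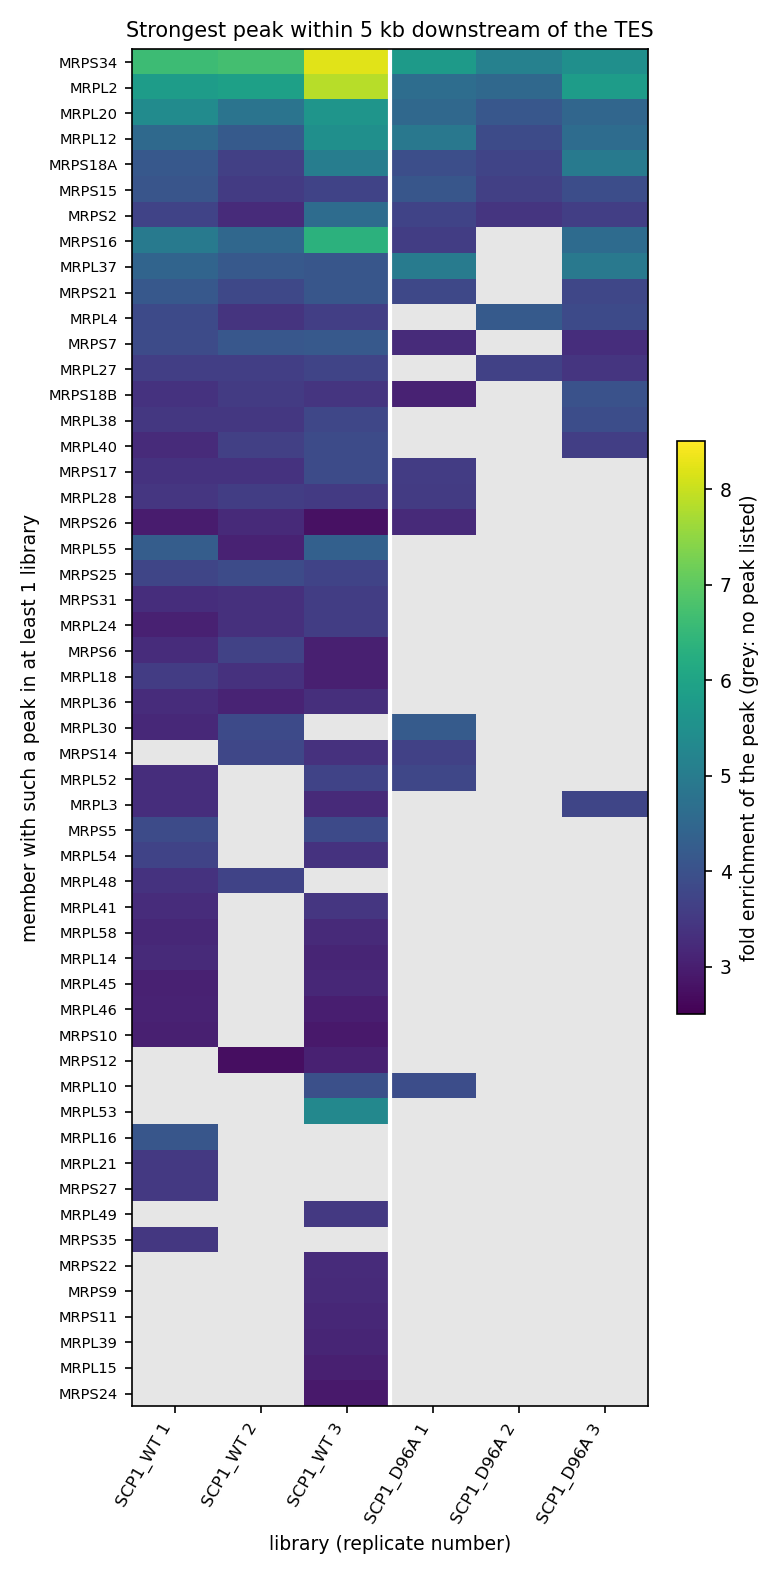
Fold enrichment of the strongest peak within 5 kb past the TES (colour) for the 53 members with such a peak (rows) in the 6 libraries (columns); grey marks no listed peak. The top 7 rows are coloured across all 6 libraries, and MRPS34 in SCP1_WT replicate 3 is the brightest cell at 8.24.

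Gene bodies held fewer listed peaks than the regions behind them, and few were listed in SCP1_D96A. In SCP1_WT 21, 14 and 43 of 75 members had a gene-body peak and in SCP1_D96A 6, 1 and 6. The means were 34.7% ± 20.2 and 5.78% ± 3.85, against 32.9% ± 17.6 and 6.04% ± 2.36 of all protein-coding genes, so the members were close to the background here. At equal peak number the counts were 8, 4 and 6 against 2, 1 and 2, a difference of 5.78 points in place of 28.9. These were 10.7, 5.33 and 8.0% against 2.67, 1.33 and 2.67% of the members, and over all genes 5.32, 4.81 and 5.90% against 3.80, 3.33 and 4.02%. Replicate 3 of SCP1_WT was the only library with a gene-body peak in 20 of them (26.7%, against 23.4% of all genes). A gene-body peak in all 3 SCP1_WT and no SCP1_D96A library was found in 5 members (MRPL12, MRPL24, MRPS12, MRPS18A and MRPS2), 6.67% against 7.02% of all genes. One in all 6 libraries was found only in MRPL20, 1.33% against 2.6%, with folds of 5.39, 4.80 and 5.63 in SCP1_WT and 4.52, 4.14 and 4.48 in SCP1_D96A. These are the same peaks as at its end, which reached back across the TES.

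MRPS12 encodes the counterpart of the bacterial protein that sets decoding accuracy. Its gene-body folds were low, 2.90, 2.73 and 3.05, with no peak in SCP1_D96A. MRPL37 had 4.43, 4.17 and 4.10 in SCP1_WT and 4.93 in SCP1_D96A replicate 3. MRPS21 had 4.15, 3.80 and 4.10 and a single SCP1_D96A peak of 3.80 in replicate 1. MRPL4, from a universal ribosomal protein family, had 3.85, 3.41 and 3.62 and 3.84 in SCP1_D96A replicate 3, and MRPS17 had 3.38, 3.39 and 3.88 and 3.57 in replicate 1. The listed folds of the groups overlapped in MRPL4 and MRPS17, and in MRPL37 the single SCP1_D96A value was the highest.

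Starts of the members were rarely under a peak. In the TSS window 10, 7 and 21 of 77 members had one in SCP1_WT and 3, 1 and 4 in SCP1_D96A, 16.5% ± 9.57 and 3.46% ± 1.98 on average. All protein-coding genes had 10.2% ± 7.89 and 1.92% ± 0.892. The groups did not overlap, but at equal peak number the counts were 4, 4 and 3 against 2, 1 and 4 and overlapped, and the difference of 13.0 points became 1.73. These were 5.19, 5.19 and 3.90% of the members against 2.60, 1.30 and 5.19%. Over all protein-coding genes the shares were 2.20, 1.86 and 2.65% against 1.54, 0.902 and 1.67%, without overlap between the groups. No TSS-window peak was listed in any library for 55 members (71.4%, against 79.95% of all genes). Of the remaining 22, 12 had one only in SCP1_WT replicate 3, which is 15.6% of the members against 12.4% of all genes.

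Most of these start peaks lay in a place that was also the downstream region of another gene. The TSS window of 20 members (26.0%) overlapped the 5 kb behind the end of another protein-coding gene, as did that of 16.9% of all genes. Of these 20, 9, 6 and 13 had a TSS-window peak in SCP1_WT and 2, 1 and 3 in SCP1_D96A. Of the 57 members whose start lay outside any such region, 1, 1 and 8 had one in SCP1_WT and 1, 0 and 1 in SCP1_D96A. Over all protein-coding genes the shares were 28.5, 20.8 and 46.5% inside and 2.67, 1.14 and 13.7% outside in SCP1_WT, and 11.7, 4.73 and 12.9% inside and 0.374, 0.123 and 0.448% outside in SCP1_D96A. In the ChIP-seq lists a peak at such a start cannot be told apart from a peak at the end of the neighbour.

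MRPL53 was the only member with a TSS-window peak in all 6 libraries, 1.30% of the members against 0.825% of all protein-coding genes. Its folds were 5.17, 4.34 and 5.31 in SCP1_WT and 5.61, 4.51 and 4.39 in SCP1_D96A, with −log10 p between 8.80 and 13.2. The groups overlapped: the log2 means were 2.30 ± 0.16 (SD, n = 3) and 2.26 ± 0.19, a difference of 0.03 with an exact permutation p of 1.0 (two-sided). Each peak covered the TSS, and in SCP1_D96A replicate 2 it was 353 bp wide, from position -172 to 180 relative to it. This stretch holds most of the promoter shown above, with its ETS matches. CCDC142, on the same strand, ends 152 bp before that TSS, and its end lay under the peak of each library. The gene itself is 699 bp long (chr2:74471982-74472680), and in SCP1_WT replicate 3 the same peak ran on for 2070 bp past the start.

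MRPL40 had start peaks in 5 libraries, with folds of 3.75, 4.0 and 3.40 in SCP1_WT and 3.37 and 3.55 in SCP1_D96A replicates 1 and 3. All of them covered the TSS, with midpoints at -674.5 to 581 bp relative to it, and the start of HIRA, a histone chaperone gene on the other strand, lies within the same window. No downstream window of another protein-coding gene reached these peaks. MRPL12 also had start-window peaks in 5 libraries, with folds of 4.06, 4.06 and 4.32 in SCP1_WT and 4.14 and 4.11 in SCP1_D96A replicates 1 and 3. Their midpoints lay at -5772 to -1437 bp relative to the TSS, and each covered the end of HGS, 1246 bp upstream on the same strand. Only the peak of SCP1_WT replicate 3 covered the TSS of MRPL12. Its promoter held none of the searched letters.

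**Figure D5:**
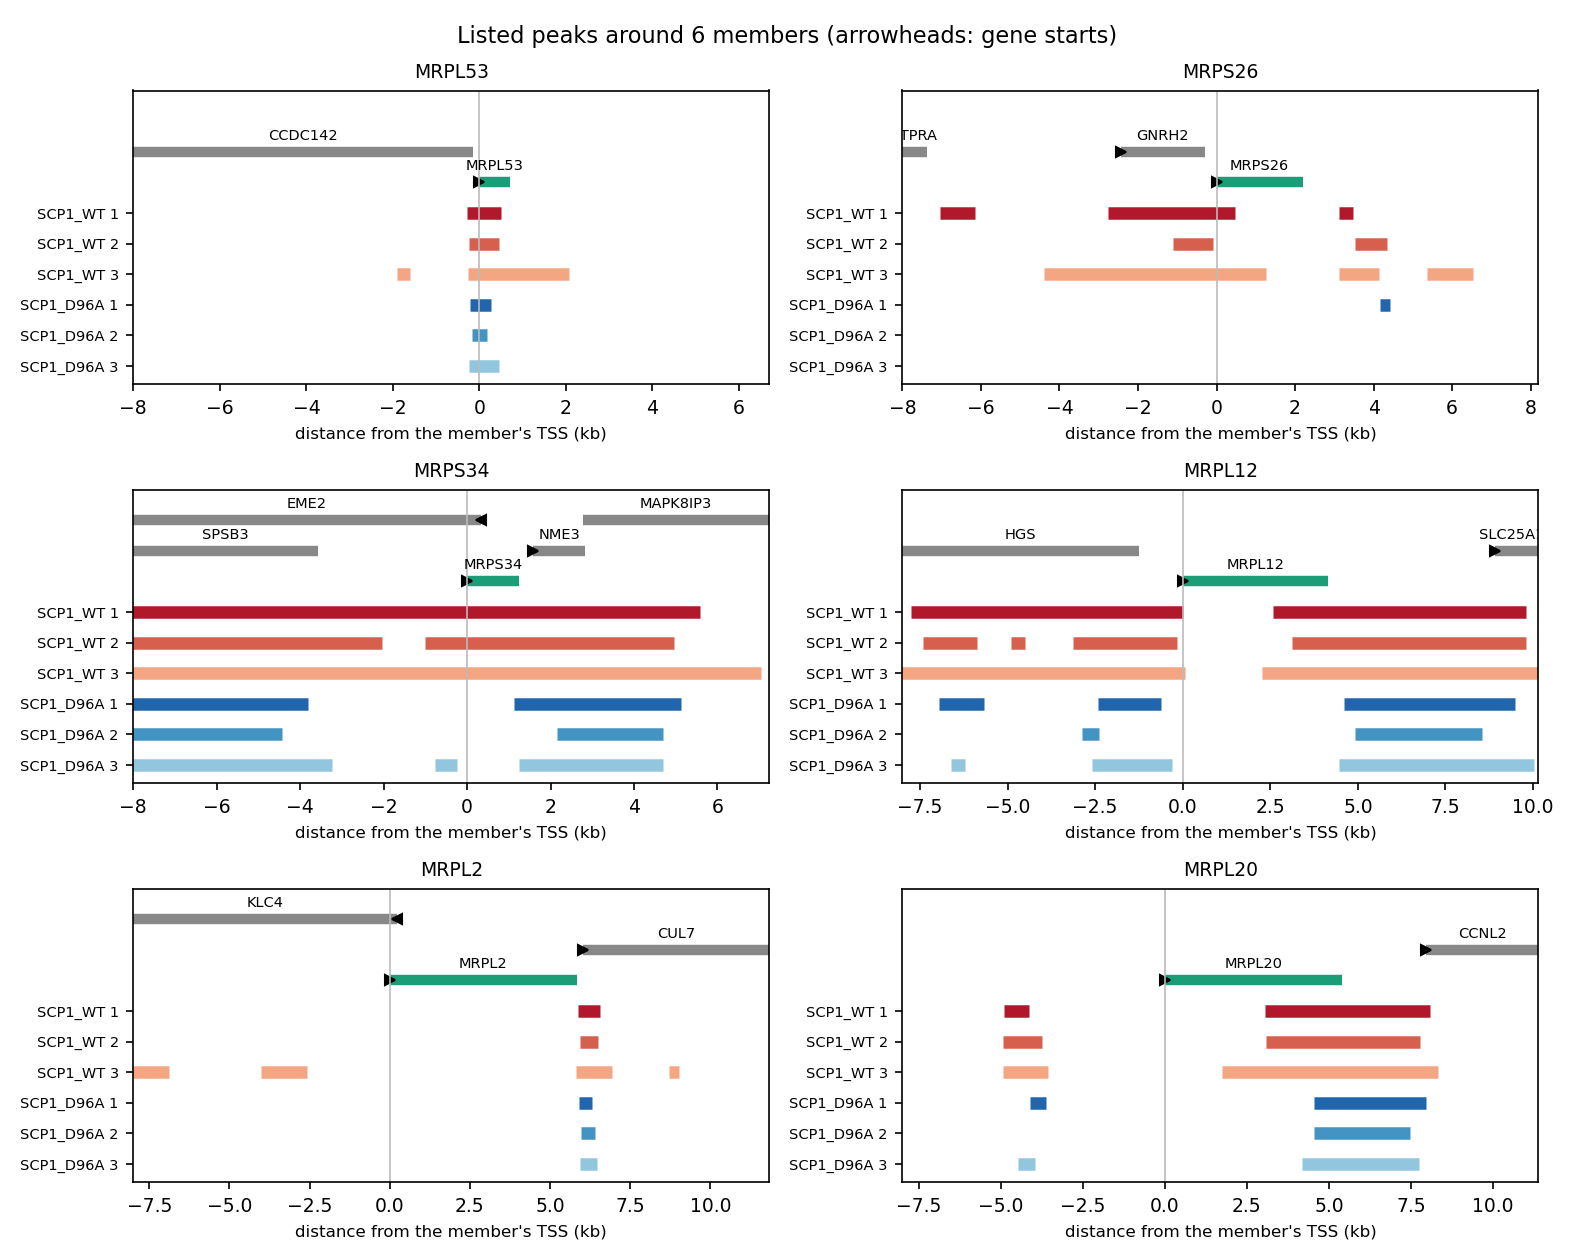
Listed peaks in the 6 libraries (rows) around 6 members, by distance from the TSS of the member (kb, horizontal axis), with the member in green, other protein-coding genes in grey and arrowheads at gene starts. At MRPL53 a peak covers the start in every library, at MRPS26 and MRPL12 the peaks before the start cover the ends of GNRH2 and HGS, and at MRPS34 the SCP1_WT peaks cover the whole gene. At MRPL20 the peaks lie at the end, and at MRPL2 they lie over the start of CUL7 next to the end.

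A start peak in all 3 SCP1_WT and no SCP1_D96A library was listed for MRPS26 and MRPS28, 2 of 77 (2.60%) against 1.28% of all protein-coding genes. Without SCP1_WT replicate 2 the count was 5, and the share of all genes was not computed for that setting. MRPS26 had folds of 3.24, 3.02 and 3.67 and MRPS28 of 3.78, 3.79 and 3.72. GNRH2, which encodes a gonadotropin-releasing hormone, ends 305 bp before the start of MRPS26 on the same strand, and the peaks there were 3228, 1026 and 5665 bp wide with midpoints at -1145.5, -602.5 and -1574 bp relative to the TSS. Each of them covered the end of GNRH2. TPD52 ends 823 bp before the start of MRPS28 on the same strand. The MRPS28 peaks had midpoints at 206, -39 and 9.5 bp relative to its TSS and overlapped no other protein-coding gene. Neither member kept the pattern at equal peak number or at the common cutoff, and at a −log10 q of at least 2 MRPS28 alone kept it.

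The remaining members with a start peak in 2 SCP1_WT libraries were MRPL24, MRPL38, MRPL9 and MRPL16. MRPL38 had folds of 3.31 and 3.35 in replicates 1 and 3, MRPL9 had 3.21 and 3.87 and MRPL16 had 3.27 and 3.35 in the same replicates. MRPL24 had 3.52 and 3.29 in replicates 1 and 2, centred 1310 and 1265.5 bp inside the gene start, which the promoter table lists 1628 bp further in. With all listed starts included, MRPL24 joined MRPS26 and MRPS28. The divergent pair MRPL46 and MRPS11, whose start regions overlap, had no start peak in any library.

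Across the 3 windows together, 63 members (81.8%) had a peak in at least 1 library, against 65.4% of all protein-coding genes. The 14 without any were MRPL1, MRPL11, MRPL13, MRPL17, MRPL22, MRPL23, MRPL32, MRPL33, MRPL35, MRPL44, MRPL50, MRPL57, MRPS18C and MRPS30. A peak in any window was found for 50, 34 and 60 members in SCP1_WT and 22, 10 and 21 in SCP1_D96A. The corresponding shares of all genes were 39.3, 28.0 and 63.3% and 15.1, 7.60 and 15.9%, against 64.9, 44.2 and 77.9% and 28.6, 13.0 and 27.3% of the members. The folds of the listed downstream peaks were close to those of other genes. The median downstream fold of the members was 3.49, 3.62 and 3.58 in SCP1_WT and 3.80, 3.87 and 3.92 in SCP1_D96A, against 3.64, 3.72 and 3.45 and 3.96, 3.91 and 3.95 over all protein-coding genes. By −log10 p within each list, start peaks of the members had median percentiles of 79.0, 91.9 and 84.5 in SCP1_WT. In SCP1_D96A these were 83.3, 93.6 and 82.2, over 3, 1 and 4 members. All protein-coding genes had 75.7, 75.3 and 66.3 and 71.0, 65.8 and 71.6. For gene-body peaks the members had 84.5, 57.3 and 84.6 and 42.6, 71.9 and 35.8. The values over all genes there were 67.3, 62.1 and 75.7 and 57.5, 53.5 and 59.2.

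Other nuclear genes of mitochondrial translation were taken from a list of 54, which holds ribosome proteins outside the symbol rule, translation factors, assembly factors and aminoacyl-tRNA synthetases. Of them 23, 18 and 29 had a downstream peak in SCP1_WT and 12, 8 and 12 in SCP1_D96A, 43.2% ± 10.2 against 19.8% ± 4.28. In the TSS window it was 5, 5 and 14 (9.26, 9.26 and 25.9%) against 3, 0 and 2 (5.56, 0.0 and 3.70%). The shares of all protein-coding genes were 7.04, 4.47 and 19.2% against 2.30, 0.902 and 2.56%. In the gene body it was 21, 16 and 32 (38.9, 29.6 and 59.3%) against 7, 1 and 8 (13.0, 1.85 and 14.8%). Here all protein-coding genes had 28.4, 17.9 and 52.2% against 7.11, 3.33 and 7.68%. Ranked by the lowest SCP1_WT fold, GADD45GIP1 came before MTG1 and PTCD3. GADD45GIP1 encodes a large-subunit protein and had downstream folds of 4.95, 4.80 and 5.59 in SCP1_WT and 4.19 and 4.44 in SCP1_D96A replicates 1 and 3. MTG1, an assembly GTPase of the large subunit, had 5.41, 4.65 and 5.70 against 4.76, 3.88 and 4.53, and PTCD3, a small-subunit protein, had 5.53, 4.81 and 4.62 against 4.66, 4.28 and 4.11. AARS2 and CARS2, synthetases that charge mitochondrial tRNAs, had downstream folds of 5.58, 4.35 and 5.88 and of 4.50, 4.08 and 4.35 in SCP1_WT. In SCP1_D96A these were 4.89, 3.55 and 4.42 for AARS2 and 4.08 in replicate 3 alone for CARS2.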

How the data were processed

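Peaks of pThr4 ChIP-seq from HEK293 lysate treated with SCP1_WT or SCP1_D96A were taken from 6 broad-peak lists, 1 per library. Per the labels the authors used FastQC, cutadapt 4.6, Bowtie2 2.5.2 and the hg38 build. The peak caller's version, its control and the read filters are not given in the sources used here. The deposited fold, −log10 p and −log10 q come from the same caller, and the background that the fold refers to is not given either. The lowest −log10 q lay just above 1, as a q cutoff of 0.1 per list leaves. The IgG precipitation was not analysed here. The methods of the paper given with the series describe another phosphatase and were not used for these lists.

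Windows were computed from RefSeq gene positions of GRCh38.p14 with Python 3.11.15, numpy 2.4.6 and pandas 2.3.3, and the window code was tested on simulated peaks. That table gives no strand or exons: strand came from the RefSeq promoter table for 69 members and by name from GENCODE for 8, and exons and introns were not told apart. For single genes, log2 folds of the 3 and 3 libraries were exchanged in all 20 ways (exact permutation, two-sided). No test was made over the members as a set. Genes were named by rule: the start peaks in at least 2 SCP1_WT libraries, the downstream peaks in all 6 or in SCP1_WT alone, up to 5 gene-body members and 6 of the other translation genes by lowest fold, of which 1 is not reported here. MRPS16, MRPL37 downstream, MRPS7, MRPL10, MRPS14 and the divergent pair were named after their values were seen. The members and lists were chosen with earlier results of these data known. Lists were also compared at equal peak number, at a −log10 p of at least 6, at a −log10 q of at least 2, with 200 bp of overlap, with narrower windows (500 bp and 2 kb), without neighbours, without each library, by replicate number and within replicates 1 and 2. Labels name the replicates biological but give no separate cultures, so p-values measure the spread between these libraries.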

Additional observations from a re-analysis of the deposited data

How the results depend on the processing

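Differences are SCP1_WT minus SCP1_D96A in percentage points of members, and counts are members. With equal peak number the TSS-window difference fell from 13.0 to 1.73, the gene-body difference from 28.9 to 5.78 and the downstream difference from 32.0 to 0.0. At the common p cutoff the TSS-window and downstream differences were 2.60 and 6.06, and at the stricter q the downstream difference was 17.7. The gene-body difference was 10.2 at the common cutoff and 18.7 at the stricter q, and the TSS-window difference 6.93 at the stricter q and 7.5 without other genes in the window. Members with a TSS-window peak in SCP1_WT alone went from 2 to 0 under equal peak number, the common cutoff and the window free of other genes, to 1 at the stricter q and to 4 with replicates 1 and 2 only. Those with such a downstream peak numbered 7 as deposited, 1 under equal peak number and the common cutoff (MRPS7, not among the 7), 4 at the stricter q (MRPL27, MRPS21, MRPS7 and MRPS25, of which only MRPS25 is among the 7) and 3 of the members without a neighbouring gene. Members with a downstream peak in all 6 libraries went from 7 to 2 without a neighbouring gene, where fewer members were tested. The median log2 fold difference went from 0.09 to 0.27 under equal peak number, the common cutoff and the stricter q, over the 5 members left.

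Leaving out 1 library at a time gave TSS-window differences of 7.58 to 16.7, gene-body differences of 17.6 to 36.9 and downstream differences of 27.3 to 38.3. The counts in SCP1_WT alone ranged from 2 to 5 (TSS window, 5 without SCP1_WT replicate 2) and from 7 to 15 (downstream, 15 without SCP1_WT replicate 2), and those in all 6 from 7 to 12 (12 without SCP1_D96A replicate 2). The median log2 fold difference ranged from -0.022, without SCP1_WT replicate 3, to 0.21. Replicates 1 and 2, whose peak names carry another number than those of replicate 3, gave differences of 8.44, 18.7 and 28.6. Settings that left out libraries were computed for the members alone. The cause of the changes between settings was not tested beyond what the settings themselves change. The start list with all promoter-table entries was added after seeing the data and gave 13.4 and 3.

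Libraries with the same replicate number did not deviate together over 8226 genes (correlations 0.02, -0.06 and -0.06), and the numbers were not treated as pairs. These correlations cannot exclude that libraries of the same number came from the same lysate. The peak names carry matching numbers in the 2 groups, and the exact permutations did not use such a block. Under the replicate block the differences were 9.09, 20 and 29.9, the median log2 fold difference was 0.12 and the counts were 2, 7 and 7. Depth is unknown, so a peak just under the cutoff of a list cannot be told from no signal.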
